A study of Sebastes schlegelii with 6 samples.

Results

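Acetyl-CoA carboxylase makes malonyl-CoA, the building block of fatty acid synthesis and the molecule that holds back entry of fatty acids into mitochondria. In mammals ACACA encodes the cytosolic form that feeds fatty acid synthase, and ACACB encodes a form at the mitochondrial outer membrane, beside carnitine palmitoyltransferase. MID1IP1, a small protein first known as a partner of the microtubule-associated ligase MID1, binds mammalian carboxylase, promotes its assembly into filaments and raises its activity. Bony fish carry several MID1IP1 genes; in zebrafish the mid1ip1l product acts on the actin cytoskeleton of the egg.

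These genes were followed in the liver of the Korean rockfish, Sebastes schlegelii, after 72 days of feeding (3 libraries) or of starvation over the same 72 days (3 libraries). The series title gives the response to starvation as the question. Neither strain, age nor sex of the fish is labelled, and whether each of the 3 libraries in a group is a different fish is not stated. The p-values below therefore weigh differences against a spread between libraries that may be technical. All rows of the count table whose symbol, ignoring case, was acaca or acacb or began with mid1ip1 were taken: 5 of 19303 genes. They were Acaca (S.schlegelii_GLEAN_10020690), ACACB (S.schlegelii_GLEAN_10006585), mid1ip1b (S.schlegelii_GLEAN_10012488), mid1ip1l (S.schlegelii_GLEAN_10011018) and mid1ip1a (S.schlegelii_GLEAN_10009252). Each symbol had 1 row, and all 5 passed the filter on low counts, as did 13338 genes in all. For mid1ip1a this was only through its fed libraries, where it was high. The coding lengths behind the authors' FPKM values were 7140 bases for Acaca, 6927 for ACACB, 417 for mid1ip1b, 510 for mid1ip1l and 498 for mid1ip1a.

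Total counts lay between 11623356 and 14716282 per library. Fed replicate 1 stood apart: its log2 CPM (counts scaled to a common library total, with TMM factors) had correlations over genes of 0.891 and 0.876 with fed replicates 2 and 3, which correlated at 0.951 with each other. Its share of spliced reads was 41.7% of uniquely mapped reads, against 50.7% to 53.3% elsewhere. Hepatocyte markers (9 of 12 symbols matched) were abundant in every library, with a summed level from 125722 to 258377 CPM in fed and from 145910 to 184771 CPM in starved liver. Values without fed replicate 1 are given beside the calls that change without it.

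Of the 5 genes, 4 were lower in starved liver and 0 were higher (edgeR, quasi-likelihood F test at an adjusted p under 0.05, with the Benjamini-Hochberg adjustment over all tested genes); 2.98% of all tested genes were called lower. The 4 were Acaca and all 3 mid1ip1 genes, and their starved libraries all lay below their fed libraries, as they did for 15.5% of tested genes. One of them, mid1ip1a, was open to the test only through the group where it was high. ACACB did not pass. With the DESeq2 Wald test the same 4 genes were called lower (7.16% of all tested genes were), with limma-voom 3 (2.49%) and at an adjusted p under 0.01 in edgeR 2 (0.487%). Without starved replicate 1, 2 or 3 edgeR called 2 of the 5 lower in each case, Acaca and mid1ip1b (0.356%, 0.585% and 0.588% of all tested genes). In whole liver, fewer cells of a type and less RNA per cell cannot be told apart.

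**Figure D1:**
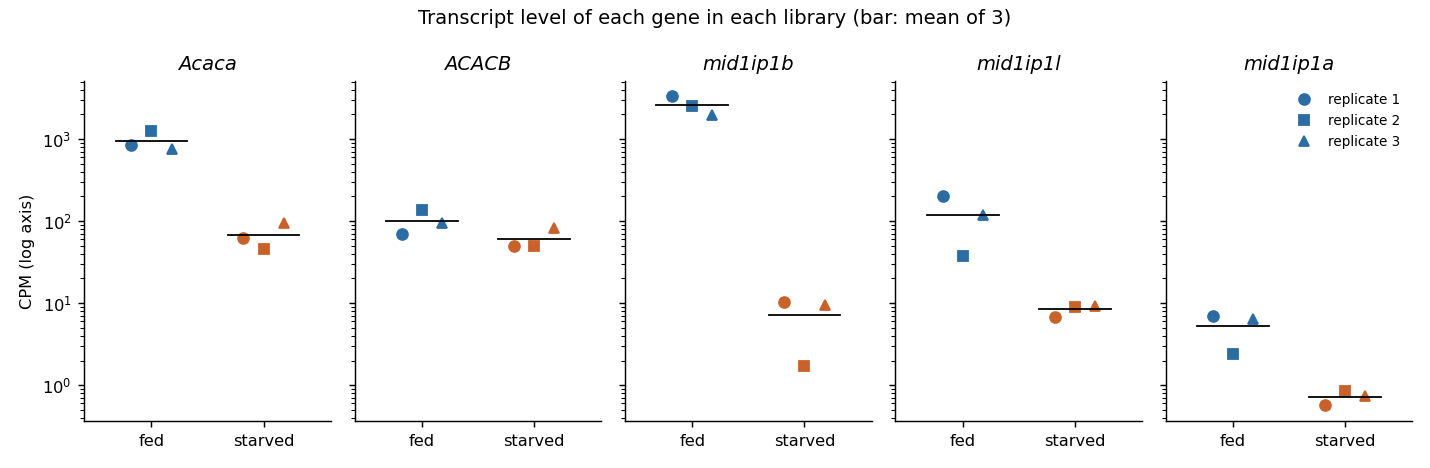
CPM of each gene (log axis) in each library, fed in blue and starved in orange, with replicates as circle, square and triangle and the group mean as a bar. The groups are apart for Acaca, mid1ip1b, mid1ip1l and mid1ip1a and overlap for ACACB, where fed replicate 1 (68.8 CPM) lies below starved replicate 3 (83.6 CPM).

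Acaca, the carboxylase of fatty acid synthesis, had 860, 1243 and 754 CPM in fed replicates 1, 2 and 3 and 61.6, 45.3 and 95.9 CPM in starved replicates 1, 2 and 3. Its lowest fed library was 7.86 times its highest starved library. The fall was 14.1-fold (95% interval 7.14 to 27.8; log2 fold change -3.82 ± 0.43 SE, n = 3 per group; edgeR adjusted p = 0.00467). Acaca stayed called in all 16 alternatives, although without starved replicate 1 its adjusted p reached 0.0494 (edgeR). In the authors' deposited table the fold of fed over starved was 14.0 with q = 2.15e-21.

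ACACB, named for the carboxylase that sits at mitochondria in mammals, had 68.8, 136 and 95.7 CPM in fed replicates 1, 2 and 3. Its starved replicates 1, 2 and 3 had 50.002, 50.011 and 83.6 CPM. The highest of these lay above the lowest fed library, so the groups overlapped. The log2 fold change was -0.71 ± 0.35 SE (n = 3 per group; edgeR adjusted p = 0.279), with a 95% interval from -1.51 to 0.09. That interval reaches from a 2.84-fold fall to a ratio of fed over starved of 0.940, so a moderate fall was not resolved with these libraries. It passed in 0 of the 16 alternatives; the lowest adjusted p was 0.0853, without fed replicate 1, where the log2 fold change was -0.92 (edgeR). The authors' deposited table gave ACACB a fold of fed over starved of 1.62 with q = 0.271.

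The balance between both carboxylases was compared per coding length. FPKM scales a count by coding length and by the total of its library, so levels of different genes can be set side by side on it. Acaca made up 92.4%, 89.9% and 88.4% of the summed carboxylase FPKM in fed replicates 1, 2 and 3. In starved replicates 1, 2 and 3 its share was 54.5%, 46.8% and 52.7%. The groups did not overlap, and the mean share went from 90.2% ± 1.99 to 51.3% ± 4.03 (SD, n = 3 per group; exact two-sided permutation p = 0.10, the smallest that 3 against 3 libraries can give). In starved replicate 2 ACACB was the more abundant carboxylase transcript. The log2 ratio of ACACB over Acaca was -3.22 ± 0.33 in fed and -0.07 ± 0.23 in starved liver (SD, n = 3 per group; exact permutation p = 0.10, and 0.15 adjusted over the 6 ratios computed). Summed carboxylase FPKM had a mean of 152 ± 72.5 in fed and 18.3 ± 4.71 in starved liver (SD, n = 3 per group), an 8.34-fold difference of means.

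**Figure D2:**
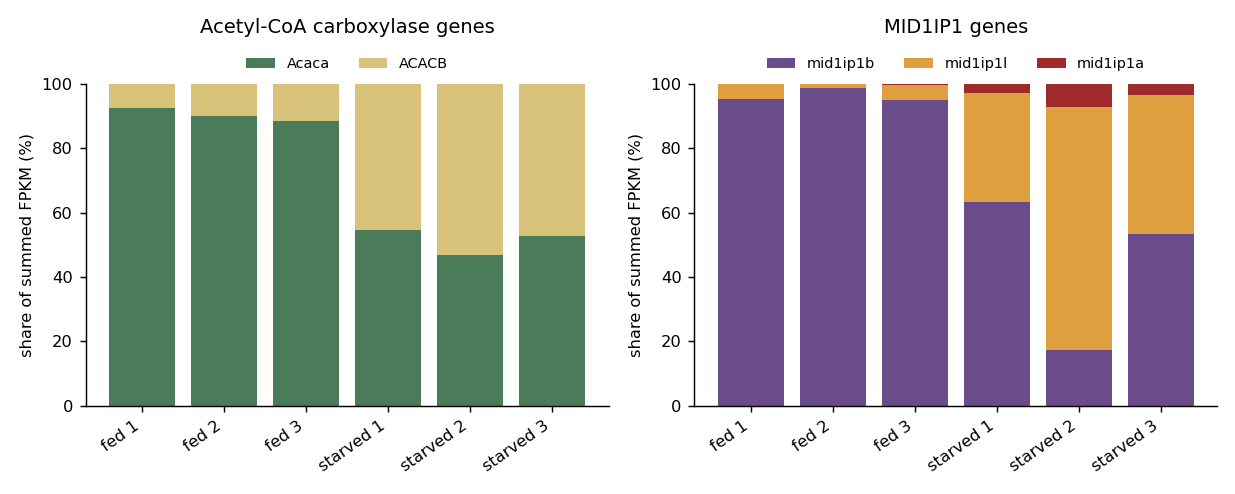
Share of summed FPKM (%) in each library: left, Acaca and ACACB among the 2 carboxylase genes; right, the 3 MID1IP1 genes. Acaca takes 88.4% to 92.4% in fed and 46.8% to 54.5% in starved libraries, and mid1ip1b takes at least 95.1% in fed and 17.4% to 63.3% in starved libraries.

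mid1ip1b had the steepest fall of the 5 genes. Its CPM was 3310, 2539 and 1963 in fed replicates 1, 2 and 3 and 10.4, 1.71 and 9.40 in starved replicates 1, 2 and 3. The lowest fed library was 189 times the highest starved library. Starved replicate 2 held 26 counts of this gene, against 147 and 128 in starved replicates 1 and 3 and 25501 to 40050 in fed libraries. The fall was 363-fold (95% interval 99.0 to 1330; log2 fold change -8.50 ± 0.82 SE, n = 3 per group; edgeR adjusted p = 0.00339). Only 4 of the 13338 tested genes had a more negative log2 fold change. In FPKM, mid1ip1b ranked 24, 15 and 20 among 19303 genes in fed replicates 1, 2 and 3, and 2236, 7977 and 2446 in starved replicates 1, 2 and 3. Its rank was lower in all 3 starved libraries, and by far the lowest in starved replicate 2. In fed liver it took 0.207% to 0.307% of all counts. The call held in all 16 alternatives, with log2 fold changes from -8.87 to -8.03 and a highest adjusted p of 0.0387 (edgeR, 1 library left out).

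mid1ip1l, whose zebrafish namesake is known from the egg, had 200, 37.7 and 118 CPM in fed replicates 1, 2 and 3. Its starved replicates 1, 2 and 3 were close together at 6.80, 9.09 and 9.25 CPM. Fed replicate 2 was far below the other fed libraries and still 4.07 times the highest starved library. The fall was 14.1-fold (95% interval 5.59 to 35.6; log2 fold change -3.82 ± 0.58 SE, n = 3 per group; edgeR adjusted p = 0.0131). Without starved replicate 1, 2 or 3 the adjusted p was 0.0796, 0.0697 or 0.0692 and the call ended, at log2 fold changes of -3.68, -3.87 and -3.89 (edgeR). Without fed replicate 1 the fall was 9.27-fold and the call held (edgeR adjusted p = 0.019).

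mid1ip1a was the least abundant of the 5, with 6.96, 2.41 and 6.46 CPM in fed replicates 1, 2 and 3 and 0.567, 0.857 and 0.734 CPM in starved replicates 1, 2 and 3. These starved values rest on 8, 13 and 10 counts, and the fed values on 60, 38 and 84. The fall was 7.19-fold (95% interval 3.25 to 15.9; log2 fold change -2.85 ± 0.50 SE, n = 3 per group; edgeR adjusted p = 0.02). The call was lost without fed replicate 3 (adjusted p = 0.0523) and without starved replicate 1, 2 or 3 (adjusted p = 0.102, 0.0873 and 0.095, edgeR), and with limma-voom (adjusted p = 0.0548). On the log2(FPKM + 1) scale the log2 fold change was -2.09 and the call held (limma adjusted p = 0.0141). Since mid1ip1a passed the low-count filter only through its fed libraries, the fit without that filter matters here. In it the call held (edgeR adjusted p = 0.0103). The authors' deposited table gave folds of fed over starved of 361 for mid1ip1b, 14.1 for mid1ip1l and 7.24 for mid1ip1a, with q of 1.41e-47, 3.08e-10 and 4.9e-05.

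**Figure D3:**
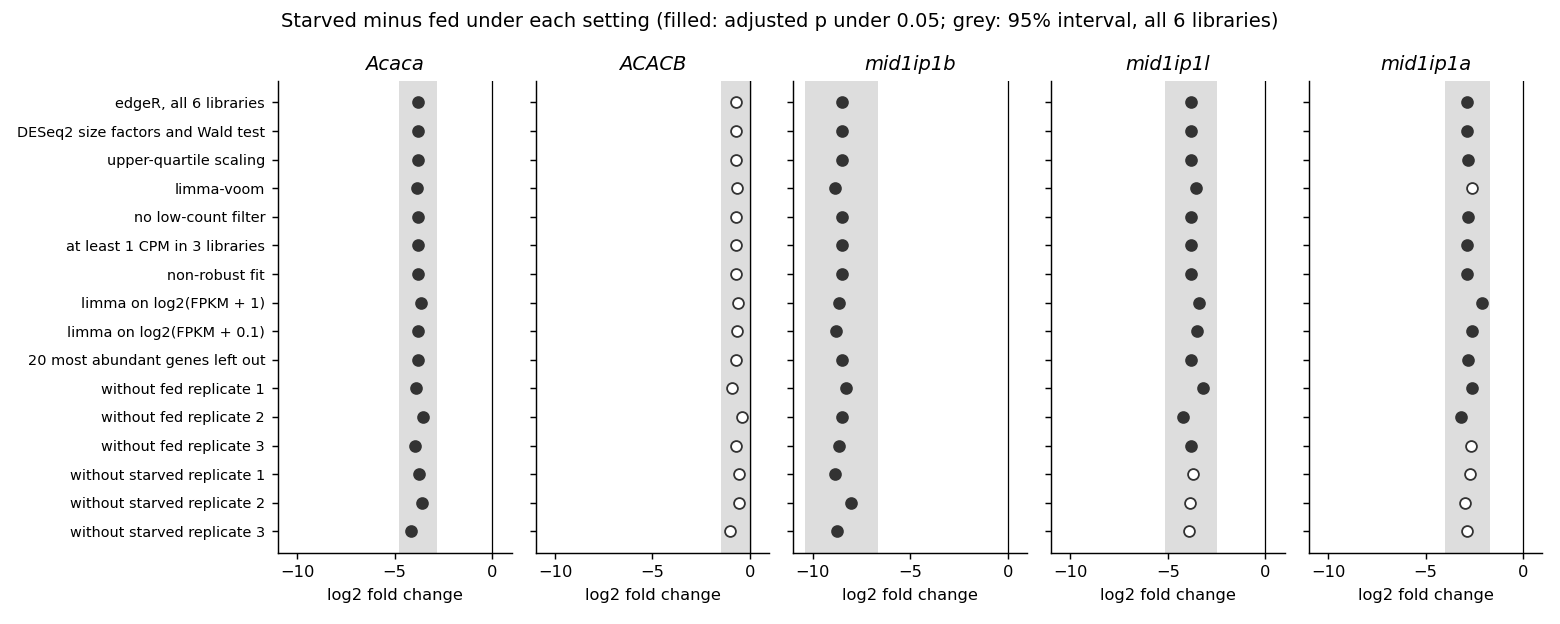
Log2 fold change, starved minus fed, of each gene under the edgeR test with all 6 libraries (top) and 15 alternatives, filled where adjusted p was under 0.05, with the 95% interval of the top fit in grey. All values are negative; Acaca and mid1ip1b are filled throughout, ACACB nowhere, and mid1ip1l and mid1ip1a are open when a starved library is left out, and mid1ip1a also with limma-voom and without fed replicate 3.

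The order of the 5 genes by mean FPKM was the same in fed and in starved liver, but the gaps between neighbours differed. In fed liver mid1ip1b led with 6079 ± 1209 FPKM, then mid1ip1l with 208 ± 106, Acaca with 137 ± 64.7, ACACB with 15.2 ± 8.18 and mid1ip1a with 9.98 ± 3.95 (SD, n = 3). mid1ip1l and Acaca overlapped there, as did ACACB and mid1ip1a, while the other neighbours did not. In starved liver the order of means was mid1ip1b with 17.2 ± 11.3 FPKM, mid1ip1l with 16.7 ± 2.62, Acaca with 9.44 ± 2.82, ACACB with 8.84 ± 2.02 and mid1ip1a with 1.47 ± 0.343 (SD, n = 3). mid1ip1b and mid1ip1l overlapped there, as did Acaca and ACACB, while mid1ip1l lay above Acaca and ACACB above mid1ip1a in all starved libraries. The order of means did not hold in each library. In starved replicate 2 mid1ip1b, at 4.43 FPKM, lay below mid1ip1l (19.2), ACACB (7.78) and Acaca (6.83). These lengths cover coding sequence only, and whether reads in untranslated regions were counted is not given, which bears most on the short mid1ip1 genes.

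Among the MID1IP1 genes, mid1ip1b held 95.1%, 98.7% and 95.1% of the summed FPKM in fed replicates 1, 2 and 3 and 63.3%, 17.4% and 53.5% in starved replicates 1, 2 and 3. mid1ip1l went from 4.70%, 1.20% and 4.67% to 33.8%, 75.4% and 43.0%, so that it was the leading MID1IP1 transcript in starved replicate 2. Neither gene's groups overlapped (exact permutation p = 0.10 for each share, the smallest possible, and 0.10 adjusted over the 4 shares computed). The sum of the 3 genes had a mean of 6297 ± 1120 FPKM in fed and 35.3 ± 8.56 FPKM in starved liver (SD, n = 3 per group), a 178-fold difference of means.

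Whether the genes fell by unequal amounts was asked with ratios within a library, which do not depend on depth. The log2 ratio of mid1ip1b over Acaca was 6.04, 5.13 and 5.48 in fed replicates 1, 2 and 3 and 1.52, -0.61 and 0.74 in starved replicates 1, 2 and 3. Relative to Acaca, mid1ip1b was thus 31.97 times lower in starved liver, with no overlap (exact permutation p = 0.10, and 0.15 adjusted over 6 ratios). mid1ip1l over Acaca was 1.70, -1.24 and 1.13 in fed and 0.62, 1.48 and 0.43 in starved replicates 1, 2 and 3. Those groups overlapped (exact permutation p = 0.90), and the mean difference of 0.31 turned to -0.57 without fed replicate 2 and to -0.0057 without starved replicate 2. mid1ip1a over Acaca had means of -3.75 ± 1.21 and -2.58 ± 0.67 (SD, n = 3 per group; exact permutation p = 0.30). Relative to mid1ip1b, mid1ip1l was 5.31 and mid1ip1a 6.17 higher on the log2 scale in starved liver, with no overlap (exact permutation p = 0.10 each).

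The genes also varied differently within the fed group. Fed replicate 2 had the highest Acaca and ACACB values and the lowest mid1ip1l and mid1ip1a values of the fed libraries, in CPM and in FPKM. mid1ip1b was highest in fed replicate 1 in CPM but in fed replicate 2 in FPKM. Between the highest and the lowest fed library, mid1ip1l differed 5.31-fold and mid1ip1a 2.89-fold in CPM, against 1.65-fold for Acaca, 1.97-fold for ACACB and 1.69-fold for mid1ip1b. This contrast depended on the scaling. In FPKM, fed replicates 1, 2 and 3 had 291, 89.4 and 245 for mid1ip1l and 10.4, 5.86 and 13.7 for mid1ip1a. Acaca had 89.3, 211 and 112 FPKM there and ACACB 7.37, 23.7 and 14.6. On that scale the spread did not set mid1ip1l and mid1ip1a apart from the carboxylases. Over the 6 libraries the most alike pair was mid1ip1l and mid1ip1a, whose centred log2 CPM differed by a root mean square of 0.57; the least alike was ACACB and mid1ip1b, at 4.14. In starved liver the spread was widest for mid1ip1b, at 6.08-fold, and narrowest for mid1ip1l, at 1.36-fold.

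The genes around the carboxylases were counted in lists, without a test of the lists. The first list holds enzymes that supply or use malonyl-CoA and the carnitine palmitoyltransferases that it inhibits. Of its 19 tested genes 4 fell, 1 rose and 14 did not pass (background 2.98% lower and 2.18% higher); the median log2 fold change was -0.17, against -0.03 over all tested genes. The 4 that fell make acetyl-CoA or lengthen fatty acids. ACSS2, which makes acetyl-CoA from acetate, had 502, 286 and 352 CPM in fed and 40.4, 48.3 and 88.5 CPM in starved replicates 1, 2 and 3 (log2 fold change -2.69; edgeR adjusted p = 0.0135). Its starved libraries all lay below its fed libraries, as they did for 15.5% of tested genes. A second ACSS2 gene had means of 6.68 and 6.56 CPM (edgeR adjusted p = 0.963).

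Both genes named for ATP citrate lyase, which makes acetyl-CoA from citrate, were called. ACLY had 53.3, 39.0 and 42.0 CPM in fed and 20.5, 17.1 and 18.6 CPM in starved replicates 1, 2 and 3 (log2 fold change -1.26; edgeR adjusted p = 0.0243). The other, Acly, ranged widely in fed liver at 103, 6.21 and 32.8 CPM, with 2.05, 0.791 and 2.79 CPM in starved liver (log2 fold change -4.65; edgeR adjusted p = 0.0343). ELOVL5, an elongase that uses malonyl-CoA, had 10.3, 25.4 and 10.1 CPM in fed and 1.35, 0.659 and 1.91 CPM in starved liver (log2 fold change -3.55; edgeR adjusted p = 0.0124). Its starved libraries alone would not have passed the low-count filter. The calls of ACSS2 and ELOVL5 ended without starved replicate 1 or 2 (edgeR adjusted p up to 0.0827 and 0.0729), that of ACLY on leaving out fed replicate 2 or 3 or a starved library (up to 0.139) and that of Acly on leaving out fed replicate 1 or 3 or a starved library (up to 0.146). The calls of both genes were also lost with limma on log2(FPKM + 0.1), and that of Acly with limma-voom, with limma on log2(FPKM + 1) and without the low-count filter. Without fed replicate 1 the log2 fold change of Acly was -3.37, and it was -2.65 on the log2(FPKM + 1) scale. ELOVL5 was at -2.96 without fed replicate 2 and at -2.78 on the log2(FPKM + 1) scale. In the list, 0 genes passed as lower without starved replicate 1 or 2 (0.356% and 0.585% of all tested genes did). There were 2 without fed replicate 3 (311 of all 13806 tested genes) or starved replicate 3 (0.588%). There were 3 without fed replicate 1 (900 of all 13837) or 2 (158 of all 13701). Without starved replicate 1 or 2, 9 and 10 of the 19 had an unadjusted p under 0.05 in either direction. The share of all genes at that level is not given here.

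The gene that rose was a CPT1A copy, one of the carnitine palmitoyltransferases that malonyl-CoA inhibits. It had 0.232, 0.254 and 0.231 CPM in fed and 6.80, 2.64 and 6.83 CPM in starved replicates 1, 2 and 3 (log2 fold change 4.44; edgeR adjusted p = 0.00636). The fed values rest on 2, 4 and 3 counts and the starved values on 96, 40 and 93, so the size of the difference is uncertain. This copy passed the low-count filter only through its starved libraries, where it was high. The call held in all 16 alternatives, while the log2 fold change was 3.48 on the log2(FPKM + 0.1) and 1.53 on the log2(FPKM + 1) scale. More abundant CPT1A copies had means of 15.2 and 42.2 CPM and of 8.13 and 28.05 CPM in fed and starved liver; neither passed (edgeR adjusted p = 0.066 and 0.117). Both were higher in every starved than in every fed library, as were 15.6% of tested genes. FASN, which joins malonyl-CoA into palmitate, had 265, 62.1 and 119 CPM in fed and 50.6, 34.5 and 34.2 CPM in starved libraries (edgeR adjusted p = 0.075). Its groups did not overlap either, though it did not pass. Slc25a1, the citrate carrier, had means of 129 and 120 CPM and ELOVL6, an elongase, 59.4 and 124 CPM (edgeR adjusted p = 0.849 and 0.397). A second copy of each was lower in every starved than in every fed library, as were 15.5% of tested genes, without passing. The elovl6 copy had 228, 120 and 89.3 CPM in fed and 46.1, 5.80 and 30.2 CPM in starved replicates 1, 2 and 3 (log2 fold change -2.42; edgeR adjusted p = 0.0886), and the SLC25A1 copy had means of 7.90 and 1.57 CPM (edgeR adjusted p = 0.167); both were chosen after their values were seen. With the DESeq2 Wald test 7 genes of the list were called lower and 3 higher, among them FASN, both of these copies and 3 CPT1A genes. Of all genes tested there, 7.16% were called lower and 5.27% higher. MLYCD, which breaks malonyl-CoA down, had means of 27.3 and 26.3 CPM (edgeR adjusted p = 0.94); it was named after its values were seen.

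**Figure D4:**
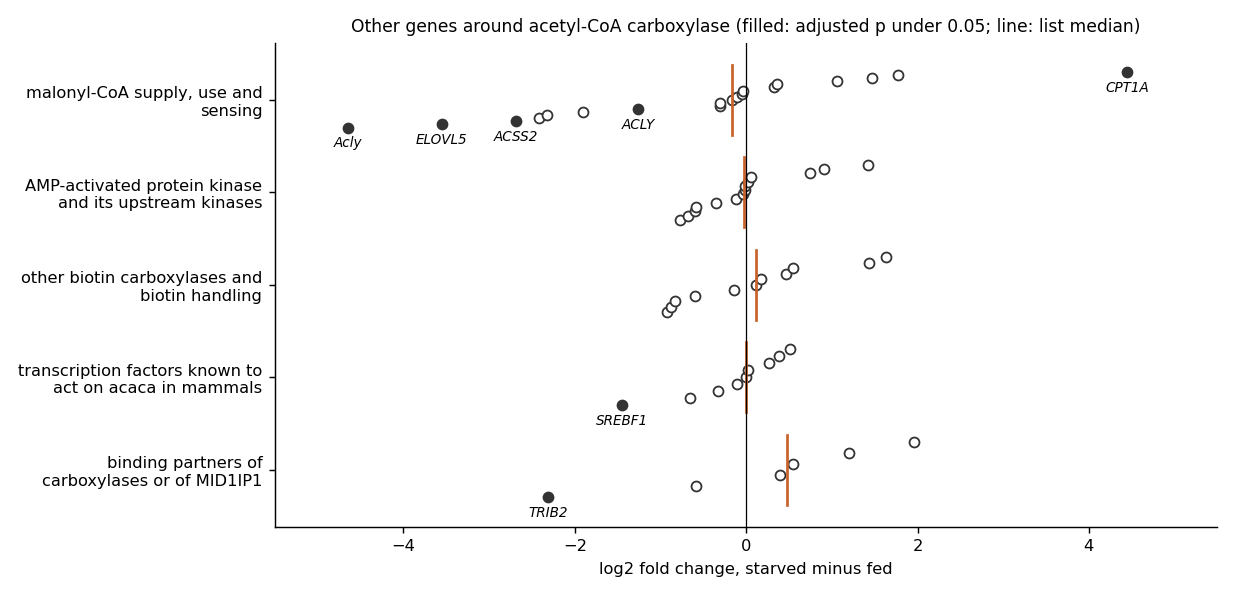
Log2 fold change, starved minus fed, of each tested gene in 5 lists around acetyl-CoA carboxylase, filled and named where adjusted p was under 0.05, with the list median as an orange line. The called genes are Acly, ELOVL5, ACSS2, ACLY and CPT1A in the malonyl-CoA list, SREBF1 among the transcription factors and TRIB2 among the binding partners.

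AMP-activated protein kinase phosphorylates and switches off acetyl-CoA carboxylase. Of 14 tested genes for its subunits and upstream kinases, 0 passed with edgeR. Over all tested genes 2.98% were called lower and 2.18% higher, so 0 in a list this short says little. An unadjusted p under 0.05 was seen for 2 (PRKAB2 and STRADA, chosen after their values were seen). Such p-values were common among all tested genes: the unadjusted p of STRADA, 0.0273, became 0.165 after adjustment (edgeR). Counts of them are therefore not read as changes. With limma-voom 0 passed, and with the DESeq2 Wald test PRKAB2 was called higher, as were 5.27% of all genes tested there. The median log2 fold change was -0.03. PRKAB2, a regulatory subunit, had 0.696, 0.888 and 1.08 CPM in fed and 2.48, 2.44 and 2.35 CPM in starved replicates 1, 2 and 3 (edgeR adjusted p = 0.076). PRKAA1, the more abundant catalytic subunit, had 15.4, 41.7 and 37.9 CPM in fed and 50.9, 57.3 and 51.0 CPM in starved replicates 1, 2 and 3 (edgeR adjusted p = 0.283). PRKAB1 and PRKAG1, also regulatory, were at -0.68 and -0.59 in log2 fold change (edgeR adjusted p = 0.269 and 0.316). Transcript levels do not measure phosphorylation of the carboxylases.

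Carboxylases of this family carry biotin, attached by holocarboxylase synthetase. Of 11 tested genes for the other biotin carboxylases and for biotin handling, 0 passed with edgeR. Over all tested genes 2.98% were called lower and 2.18% higher, so 0 in so short a list says little. The list's median log2 fold change was 0.11, against -0.03 over all tested genes. An unadjusted p under 0.05, common among all tested genes, was seen for 4 (both PC genes, PCCB and a btd gene). With limma-voom 0 passed, while 1 PC gene was called higher with the DESeq2 Wald test and with edgeR without fed replicate 1. Of all genes tested, 5.27% and 804 of 13837 were called higher in these 2 fits. Both genes named PC, for pyruvate carboxylase, were higher in every starved than in every fed library, as were 15.6% of tested genes, without passing, with means of 146 and 394 CPM for the more abundant gene and 72.5 and 225 CPM for the other (edgeR adjusted p = 0.115 and 0.197). The more abundant btd gene, for biotinidase, which recycles biotin, had means of 1111 and 624 CPM (edgeR adjusted p = 0.253), and Hlcs, the synthetase, 12.2 and 11.04 CPM (edgeR adjusted p = 0.837; chosen after its values were seen).

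Of 9 tested genes for transcription factors known to act on acaca in mammals, SREBF1 fell and 8 did not pass (2.98% of all tested genes were called lower). The median log2 fold change was -0.0012. SREBF1, the sterol-regulated driver of lipogenic genes, had 141, 99.0 and 117 CPM in fed and 44.8, 45.8 and 39.7 CPM in starved replicates 1, 2 and 3 (log2 fold change -1.45; edgeR adjusted p = 0.0206). Leaving out starved replicate 1, 2 or 3 ended this call (edgeR adjusted p up to 0.133). Mlxipl, the carbohydrate-responsive factor, had means of 170 and 243 CPM, and Nr1h3, the liver X receptor, 49.4 and 49.4 CPM (edgeR adjusted p = 0.497 and 0.9995). USF2 had means of 68.0 and 43.0 CPM (edgeR adjusted p = 0.14). It was called lower, beside SREBF1, with the DESeq2 Wald test, as were 7.16% of all genes tested there.

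Partner proteins made up the last list, of which 6 genes were tested and 1 was called lower (2.98% of all tested genes were). TRIB2 fell in 1 of its 2 copies, from 13.0, 20.9 and 16.2 CPM to 3.40, 2.37 and 4.33 CPM in replicates 1, 2 and 3 (log2 fold change -2.31; edgeR adjusted p = 0.0102). Tribbles proteins are pseudokinases, and in mammals TRIB3 brings the ligase COP1 to acetyl-CoA carboxylase. No row was matched to TRIB3 or to THRSP, also on the list, and whether TRIB2 has that role here was not tested. The TRIB2 call ended without starved replicate 1 or 2 (edgeR adjusted p = 0.0669 and 0.0559). The other copy had means of 1.67 and 3.83 CPM, Trib1 3.85 and 15.2 CPM and COP1 11.1 and 7.41 CPM, none of which passed (edgeR adjusted p = 0.146, 0.081 and 0.227). With the DESeq2 Wald test Trib1 was called higher, as were 5.27% of all genes tested there. The 3 rows named MID1, for the ligase that gave MID1IP1 its name, had group means under 1 CPM and were not tested. The list's median log2 fold change was 0.47.

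The genes nearest in pattern to Acaca and to mid1ip1b were sought among 6555 tested genes with a symbol and a mean of at least 3 log2 CPM, by the root mean square difference of centred log2 CPM over the 6 libraries. For Acaca the nearest was CEBPA, a transcription factor of liver and fat cells, at 0.43. CEBPA had 485, 649 and 612 CPM in fed and 59.4, 56.1 and 77.6 CPM in starved replicates 1, 2 and 3. Macrod2, the amino acid transporter gene slc38a2, GNPNAT1 of amino sugar synthesis and acsf2, an acyl-CoA synthetase, followed at 0.48, 0.49, 0.56 and 0.57. For mid1ip1b the nearest was LIPG, endothelial lipase, at 1.13, with 771, 114 and 422 CPM in fed and 2.55, 0.329 and 5.87 CPM in starved replicates 1, 2 and 3. Like mid1ip1b, it was lowest in starved replicate 2. Saa3, an acute phase protein, and PDSS1 of ubiquinone synthesis followed at 1.46 and 1.71. These distances describe 6 libraries in 2 groups, in which genes with a like difference between groups lie close.

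**Figure D5:**
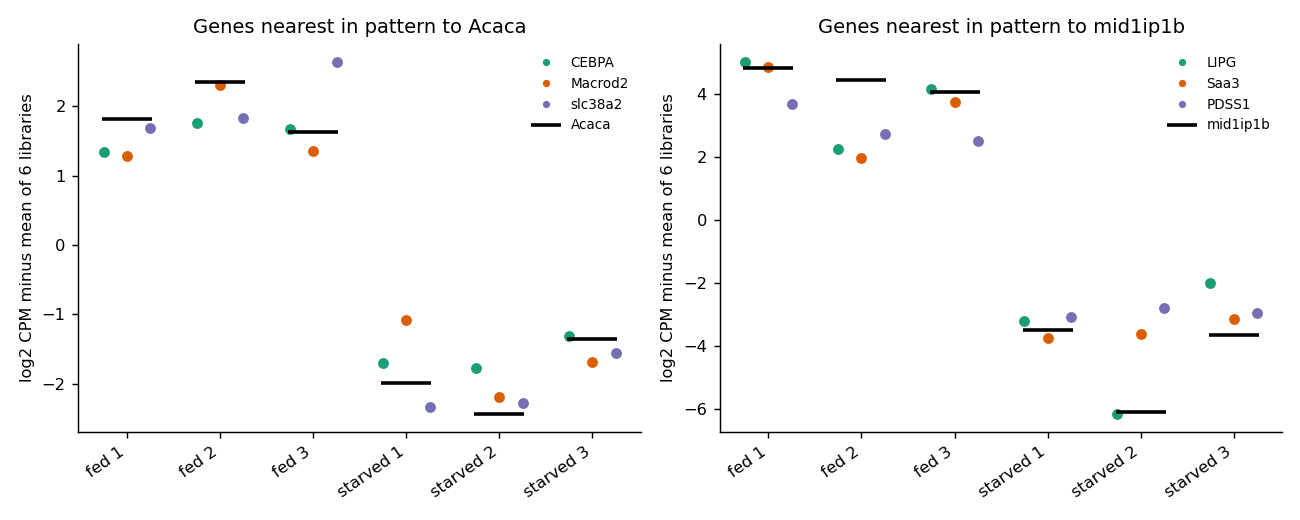
Log2 CPM minus the gene's mean over the 6 libraries, for Acaca (left) and mid1ip1b (right) as black bars and for the 3 nearest genes of each as coloured points, by library. The neighbours of Acaca lie within a root mean square of 0.49 of it, while those of mid1ip1b lie at 1.13 to 1.71, and all 3 lie below it in fed replicate 2 and above it in starved replicate 3.

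Genes listed as markers of other cells were summed in the liver samples. Those listed for adipocytes (2 of 4 symbols matched, CIDEC and lep) had 31.3 to 57.8 CPM in fed and 25.3 to 39.2 CPM in starved liver. Most of this sum was CIDEC, with means of 41.6 and 29.6 CPM, and neither adipoq nor plin1 was matched. Whether CIDEC and lep mark adipocytes in this fish was not tested, so the sum is not read as an amount of adipocytes. The matched symbols were 8 of 12 for exocrine pancreas, 4 of 9 for red cells, 4 of 6 for leukocytes, 4 of 7 for skeletal muscle, 4 of 4 for endothelium and 3 of 4 for biliary cells. No gene of the whole count table, and so no matched marker, was at 0 in all 6 libraries. Exocrine pancreas markers had 8.12 to 67.6 and 16.6 to 338 CPM, red cell markers 469 to 1333 and 185 to 983 CPM, leukocyte markers 139 to 229 and 178 to 361 CPM, and skeletal muscle markers 0.928 to 1.54 and 0.22 to 1.35 CPM. Those ranges overlapped between the groups. The summed ranges of 2 of the 8 lists did not overlap. Endothelial markers had 68.9 to 109 CPM in fed and 133 to 159 CPM in starved liver, and biliary markers 954 to 1691 and 628 to 898 CPM. Among single tested genes, 15.5% were lower and 15.6% higher in every starved than in every fed library. Most of the biliary sum was 1 krt18 gene, with means of 1011 and 561 CPM (edgeR adjusted p = 0.209). Whether its transcripts came from biliary cells or from hepatocytes was not tested, and epcam was not matched. The lower sum is therefore not read as fewer biliary cells. Another krt18 gene went the other way, with means of 104 and 145 CPM (edgeR adjusted p = 0.435). Means of krt8 and Anxa4 were lower in starved liver. Of the 50 tested markers in all 8 lists, 0 passed with edgeR and 0 with limma-voom. Over all tested genes edgeR called 2.98% lower and 2.18% higher, and limma-voom 332 and 262 of 13338. The counts of 0 therefore do not show equal amounts of these cells. With edgeR 8 of the markers had an unadjusted p under 0.05, which was common among all tested genes. With the DESeq2 Wald test 4 were called, all lower (APOH, tf, slc4a1 and krt8), as were 7.16% of all genes tested there. With limma on log2(FPKM + 1) 3 were called, all lower (APOH, tf and slc4a1), as were 293 of all 13338 genes. Without fed replicate 1 edgeR called APOH lower and Fga and a krt18 gene higher, of 53 tested markers. Of all 13837 genes tested there, 900 were called lower and 804 higher. Without starved replicate 3 edgeR called slc4a1 lower, as it did 0.588% of all tested genes. The part of these cells in the falls of Acaca and the mid1ip1 genes was not tested.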

How the data were processed

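RNA from whole liver was made into stranded, poly(A)-selected libraries and sequenced as paired ends, per the labels' protocols. The submitters' processing notes list Trimmomatic, HISAT2, Cufflinks and HTSeq without saying what each did. The genome build and the use of strand in counting are not given in the sources used here. How reads of overlapping genes or close copies were counted is not given either, so counts of such genes are less certain. No reference sequence was used.

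The count table deposited by the authors holds whole numbers of reads for each gene, without normalization. Each FPKM value in the authors' deposited table equals the gene's count over its library total and over a length that is the same in all libraries; these coding lengths were recovered from both tables. The authors' deposited fold, a ratio of starved over fed, and q-value come from a test that is not given. Spliced and uniquely mapped reads were read from the deposited mapping table.

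Libraries were grouped as fed or starved from the treatment label and numbered in deposition order. Replicates differed by 33.6 to 149 in chi-square per degree of freedom, so no library repeats another. The test on counts was edgeR 4.0.16 (R 4.3.3) with default filterByExpr, TMM scaling and a robust quasi-likelihood F test, starved minus fed, over the 13338 genes kept, with Benjamini-Hochberg adjustment. Standard errors came from the F statistic. CPM uses the TMM factors (0.743 in fed replicate 1 to 1.21 in fed replicate 2). Ratios used log2(FPKM + 0.1) and an exact two-sided permutation test. Alternatives used DESeq2 1.42.0, limma 3.58.1, other filters and scalings, and each library left out in turn; the edgeR step was tested on simulated data first.

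The 5 genes, the pathway lists and the naming rule were chosen with earlier results of these data known. From each list the called genes, up to 6 by smallest p, and up to 3 uncalled genes of highest mean CPM are named. Of the 5 genes nearest in pattern to mid1ip1b 3 are given; the rest are not reported here. Symbols were matched without case, paralog endings allowed.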

Additional observations from a re-analysis of the deposited data

How the results depend on the processing

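With 3 libraries per group, calls depended on single libraries. Over all genes 688 were called by edgeR, against 1655 with the DESeq2 Wald test, 413 with limma on log2(FPKM + 0.1) and 110 at adjusted p under 0.01; with 1 library left out the count ran from 102 (without starved replicate 1) to 1704 (without fed replicate 1). Of the carboxylase and MID1IP1 genes 4 were called lower, against 3 with limma-voom, 2 at adjusted p under 0.01, and 2 to 4 with 1 library left out. The log2 fold changes of mid1ip1l (-3.82) and mid1ip1a (-2.85) were not past adjusted p under 0.01, and mid1ip1a was at -2.62 and not called with limma-voom. With 1 library left out they ran from -4.24 to -3.21 for mid1ip1l, from -3.19 to -2.60 for mid1ip1a, from -4.15 to -3.57 for Acaca, from -8.87 to -8.03 for mid1ip1b and from -0.996 to -0.42 for ACACB. The ratio of mid1ip1l over Acaca, 0.31 on the log2 scale, ran from -0.57 (without fed replicate 2) to 0.90 and was -0.0057 without starved replicate 2. The other ratios and the shares kept their direction in all alternatives run for them. Of the 112 values of called pathway genes under an alternative, 82 stayed past the threshold and 30 did not, with no change of sign. With the DESeq2 Wald test 7 genes of the malonyl-CoA list were called lower and 3 higher (7.16% and 5.27% of all genes tested there). The cause of these changes was not tested. The median of all genes stayed between -0.04 and 0.06 in every alternative. No paired analysis was possible because the sample codes in the titles (B1, D1 and E1 fed, A6, C6 and E6 starved) share only the letter E between the groups, fewer than 2 pairs, and the labels do not say what the letters mark. The starved values of mid1ip1a rest on 8 to 13 counts, the fewest of the 5 genes. Its SE of 0.50 was still below those of mid1ip1l (0.58) and mid1ip1b (0.82), and mid1ip1b had the widest interval.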
